A study of Mus musculus with 4 samples.

Results

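The acetylcholine receptor and neuromuscular junction genes examined here were 9 of the 32285 genes in the feature table. They were chosen by symbol, for their known place at the junction between motor nerve and muscle fibre, and each symbol matched 1 row. The genes were the receptor subunits *Chrna1*, *Chrnb1*, *Chrnd*, *Chrng* and *Chrne*, the receptor tyrosine kinase *Musk*, its co-receptor *Lrp4*, its adaptor *Dok7* and the receptor scaffold *Rapsn*. Their transcripts were followed across the cell types and myogenic stages of fetal leg muscle. Single cells came from 2 wild-type (WT) and 2 knockout (KO) libraries, taken at E18.5 from littermates of heterozygous *SYISL* matings. *SYISL* is a long non-coding RNA, and no treatment is named for either group. Leg muscles were dissected fetus by fetus and genotyped from the tail, but the number of fetuses behind a library and their sex are not given in the sources used here.

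The muscle acetylcholine receptor is a pentameric ion channel that opens when the motor nerve releases acetylcholine. Its alpha subunit, which carries the binding site, is encoded by *Chrna1*, and its beta and delta subunits by *Chrnb1* and *Chrnd*. The remaining position is filled by the gamma subunit (*Chrng*) in the fetus and by the epsilon subunit (*Chrne*) in adult muscle. Agrin from the nerve binds LRP4, which activates MuSK. DOK7 then acts inside the cell to sustain MuSK activity, and rapsyn (*Rapsn*) gathers receptors beneath the nerve terminal.

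The genes lie on 5 chromosomes of the mouse genome (GENCODE annotation of GRCm38, the assembly also called mm10). *Chrnd* (chromosome 1, 87190607 to 87200070) and *Chrng* (chromosome 1, 87204657 to 87212694) lie on the plus strand, 4586 bases apart. *Chrna1* (chromosome 2, 73563215 to 73580338), *Rapsn* (91035620 to 91045729) and *Lrp4* (91457511 to 91513779) share chromosome 2, with *Chrna1* on the minus strand. *Chrnb1* (chromosome 11, 69784036 to 69795943) and *Chrne* (chromosome 11, 70614883 to 70619216) lie on the minus strand of chromosome 11. *Musk* (chromosome 4, 58285960 to 58374303) and *Dok7* (chromosome 5, 35056766 to 35087839) are on the plus strand.

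The sequences upstream of 3 subunit genes are shown because the largest contrast in level among the subunits lay between them. Each run covers bases 250 to 31 before the RefSeq transcript start (GRCm38.p6), written 5′ to 3′ on the gene's own strand. Capitals mark E-boxes (CANNTG), the sites bound by myogenic basic helix-loop-helix factors such as MyoD and myogenin, and the N-box (CCGGAA, searched on both strands), the site bound by GABP. The runs lie at chr2:73580369-73580588 (*Chrna1*, minus strand), chr1:87205561-87205780 (*Chrng*, plus strand) and chr11:70619225-70619444 (*Chrne*, minus strand).

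Chrna1: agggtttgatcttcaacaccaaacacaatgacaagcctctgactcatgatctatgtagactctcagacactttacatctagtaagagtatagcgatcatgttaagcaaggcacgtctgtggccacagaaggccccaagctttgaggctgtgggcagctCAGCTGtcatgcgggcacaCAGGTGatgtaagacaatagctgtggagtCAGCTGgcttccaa
Chrng: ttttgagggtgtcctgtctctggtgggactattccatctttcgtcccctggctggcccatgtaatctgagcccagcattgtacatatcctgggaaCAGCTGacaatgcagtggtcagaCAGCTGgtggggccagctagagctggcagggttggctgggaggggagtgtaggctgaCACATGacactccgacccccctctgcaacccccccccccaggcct
Chrne: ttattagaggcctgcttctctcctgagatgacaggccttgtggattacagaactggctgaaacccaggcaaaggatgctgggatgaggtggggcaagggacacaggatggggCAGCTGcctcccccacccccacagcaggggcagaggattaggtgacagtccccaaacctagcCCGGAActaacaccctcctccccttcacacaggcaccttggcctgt

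The *Chrna1* and *Chrng* windows each held 3 E-boxes and no N-box. The *Chrne* window held 1 E-box and 1 N-box, the latter starting 76 bases before the transcript start. Of the 32851 windows of the same 220 bases in the promoter table, 62.1% held at least 1 E-box, 9.48% held 3 or more and 9.47% held an N-box. The *Musk* window also held 3 E-boxes and the *Chrnb1* window 2. *Dok7* had windows for 2 starts, with 1 and 0 E-boxes. No window was available here for *Chrnd*, *Rapsn* and *Lrp4*. The RefSeq start of *Chrng* (87205811) lies inside the longer GENCODE span given above. These matches describe the letters in the windows only.

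After the study's stated limits on genes, UMIs and mitochondrial share, 36969 cells were kept. The study itself reports fewer cells, so the 2 sets of cells are not the same. The WT libraries held 8515 and 8177 cells, with medians of 10371 and 11427 UMIs per cell. The KO libraries held more cells, 9816 and 10461, at lower medians of 9118 and 9727 UMIs. A UMI is a tag on a single captured mRNA molecule. Levels are in CPM, a gene's UMIs per 1000000 UMIs of the same cells and library. The chemistry counts molecules from their 3′ ends, and no length scaling was applied. Whether intronic reads were also counted is not given in the sources used here. Their part in the levels of the long genes *Musk* (88344 bases), *Lrp4* (56269 bases) and *Dok7* (31074 bases) was not tested. KO replicate 2 stood apart from the other libraries in its sex-linked transcripts. It held 1203 CPM of *Xist* and 0.964 CPM over 4 Y-linked genes, against at most 0.0533 CPM and at least 272 CPM in the others. No feature was named *SYISL*, so the knockout could not be read from its own transcript. Between 15 and 27 cell barcodes were shared by any pair of libraries.

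Myogenic-like cells numbered 6734, or 18.2% of the kept cells. Their clusters were named from a list of 9 markers, of which each met 6 or 7, so these markers are no separate check. All 9 were above 1 CPM, as were 9 of the 11 FAP markers in the same cells. The myogenic-like cells fell into 3937 progenitor-like cells, 1803 cycling cells, 914 myoblast-like cells and 80 myotube-like cells. *Pax7*, the satellite cell factor, reached 131 CPM in progenitor-like cells and 4.15 CPM in myoblast-like cells. *Myog*, the differentiation factor, had the opposite order with 177 and 3809 CPM, and skeletal actin (*Acta1*) reached 26905 CPM in myotube-like cells. *Mki67* was at 510 CPM in the cycling cells. The stages were named from marker lists that hold these genes, so their levels are no separate check either. The progenitor-like cluster was led by *Ung*, *Cxcl1* and *Tagln* rather than by its stage markers, and a finer clustering placed 21.0% of its cells in an unnamed sub-cluster with 694 CPM of *Myog*. The tissue was dissociated with trypsin and strained, so mature multinucleated fibres, which carry the junctions, were largely outside what was measured, and the myotube-like group was small (11 to 31 cells per library). Markers of other cells were also found in it. The 11 FAP markers summed to 1108 and 259 CPM in WT and 2642 and 1853 CPM in KO, against 260 to 331 CPM in myoblast-like cells. The 7 neutrophil markers summed to 1817 CPM in WT replicate 1 and to at most 13.6 CPM in the other libraries, and the 7 chondrocyte markers to 741 CPM in KO replicate 2 and to at most 27.3 CPM in the others. The part of these transcripts in the myotube-like levels given below was not tested. The marker list for motor neurons summed to 0.960 CPM in myogenic-like cells, with 0 of its 7 genes above 1 CPM.

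Most of the junction genes were transcripts of the myogenic-like cells. These cells held 92.5% of all *Chrna1* UMIs, 90.7% of *Chrnd*, 85.6% of *Chrng*, 81.1% of *Musk*, 78.8% of *Rapsn*, 78.2% of *Chrnb1* and 75.4% of *Dok7*. *Lrp4* differed, with 18.3% of its 6458 UMIs in myogenic-like cells and 39.5% in the fibro-adipogenic progenitor (FAP)-like cells. *Chrne* was close to absent everywhere, with 51 UMIs among all kept cells and 8 in the myogenic-like cells. Levels across clusters of the same cells are given as a description and were not tested.

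**Figure D1:**
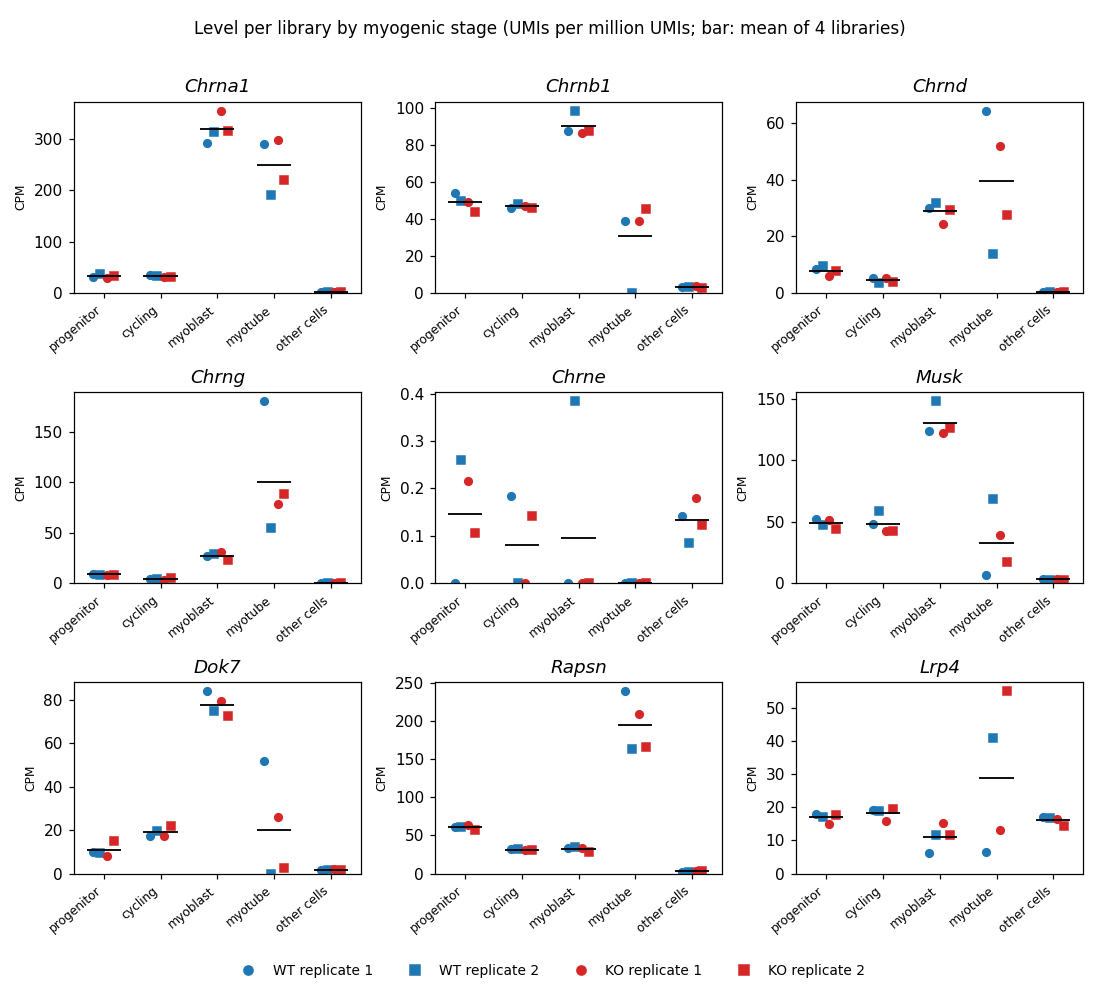
Level of each gene (CPM, linear axis) in the 4 libraries by myogenic stage and in all other cells; points are libraries, blue for WT and red for KO, and bars are the means of 4 libraries. *Chrna1* has 32.3 CPM in progenitor-like and 320 CPM in myoblast-like cells, *Rapsn* is highest in myotube-like cells at 194 CPM, and *Chrne* has at most 0.384 CPM in any stage of a library.

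Among the receptor subunits, *Chrna1* differed most between progenitor-like and myoblast-like cells. In progenitor-like cells *Chrna1* measured 30.4 and 37.3 CPM in the WT libraries and 28.1 and 33.4 CPM in the KO libraries. In myoblast-like cells it measured 293 and 314 CPM in WT and 356 and 316 CPM in KO. All 4 libraries were higher in myoblast-like cells, by 9.91 ± 1.83 times (SD, n = 4 libraries), and WT and KO libraries overlapped in progenitor-like cells. Cycling cells stood at 32.3 ± 1.72 CPM, within the spread of the progenitor-like cells. In myotube-like cells *Chrna1* measured 250 ± 52.8 CPM, lower in all 4 libraries, at 0.607 to 0.989 times the myoblast-like level of the same library. With stages set by marker genes on single cells, the ratio of *Myog*-positive to *Pax7*-positive cells was 19.7, and with the finer sub-clusters it was 25.7.

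The beta and delta subunit genes differed between the same stages by smaller ratios. *Chrnd* measured 7.88 ± 1.54 CPM in progenitor-like and 28.9 ± 3.30 CPM in myoblast-like cells, a ratio of 3.66 ± 0.331. *Chrnb1*, which was already at 49.1 ± 4.31 CPM in progenitor-like cells, was at 90.0 ± 5.63 CPM in myoblast-like cells, a ratio of 1.83 ± 0.182. In each library the myoblast-like value of both genes exceeded the progenitor-like value. In myotube-like cells *Chrnb1* was at 30.7 ± 20.7 CPM, with 0 UMIs in the 11 cells of WT replicate 2. *Chrnd* there was at 39.4 ± 23.0 CPM, between 0.427 and 2.15 times the myoblast-like level of the same library.

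*Chrng* was highest in myotube-like cells. It measured 9.53 and 8.48 CPM in the progenitor-like cells of the WT libraries and 8.45 and 8.05 CPM in those of the KO libraries. In myoblast-like cells the values were 26.6 and 29.2 CPM in WT and 30.7 and 23.1 CPM in KO, 3.18 ± 0.416 times the progenitor-like level. In myotube-like cells they were 180 and 54.5 CPM in WT and 78.1 and 87.9 CPM in KO. Every library was higher in myotube-like than in myoblast-like cells, by 1.87 to 6.78 times, although the lowest of these rested on 4 UMIs. The cycling cells had the lowest myogenic level at 4.46 ± 0.762 CPM.

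Transcripts of the adult subunit were nearly missing beside those of the fetal one. In myogenic-like cells *Chrng* and *Chrne* had 190 and 1 UMIs in WT replicate 1, 170 and 3 in WT replicate 2, 203 and 2 in KO replicate 1 and 212 and 2 in KO replicate 2. *Chrng* thus made up 99.5%, 98.3%, 99.0% and 99.1% of the pair. The 95% exact binomial intervals, which cover counting error only, ran from 95.02% at the lowest bound to 99.99% at the highest over the libraries. The share was 98.9 ± 0.856% in WT and 99.0 ± 0.0290% in KO (SD, n = 2 each), a difference of 0.174 percentage points (exact two-sided permutation test over 6 arrangements, p = 1). The smallest p this design allows is 0.33. Myoblast-like cells had 291 *Chrng* UMIs and 1 *Chrne* UMI, and myotube-like cells 79 and 0, the latter allowing a *Chrne* level of up to 3.84 CPM. The *Chrne* level in myogenic-like cells (0.115 ± 0.0539 CPM) lay within the spread of the level in all other cells (0.132 ± 0.0395 CPM). *Chrne* overlaps the gene 4930544D05Rik on the opposite strand, which had 0 UMIs in every myogenic stage.

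**Figure D2:**
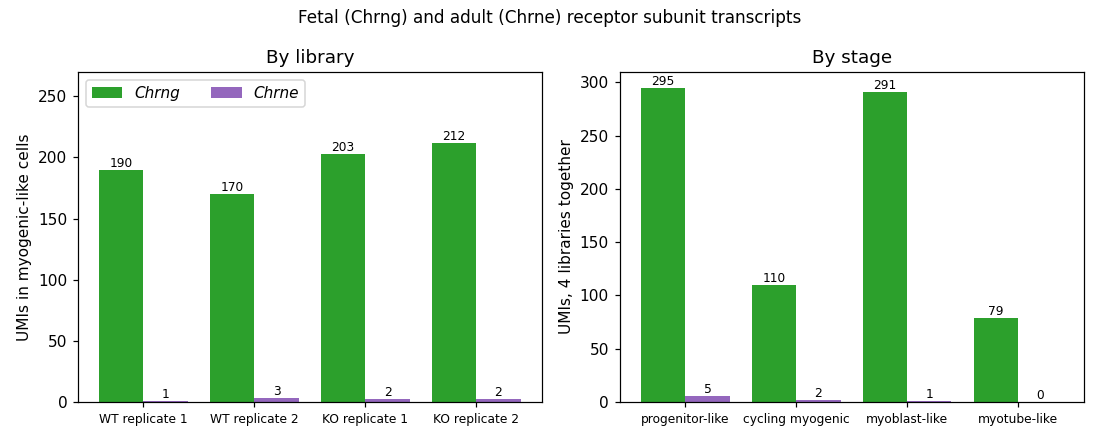
UMIs of *Chrng* (green) and *Chrne* (purple) in myogenic-like cells, by library (left) and by stage over the 4 libraries (right); bars start at 0 and carry their count. *Chrng* has 170 to 212 UMIs per library and *Chrne* 1 to 3.

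The make-up of the receptor transcripts differed between stages. In progenitor-like cells *Chrnb1* gave the largest share of the UMIs of the 5 subunits (50.1 ± 3.51%), followed by *Chrna1* (32.9 ± 3.22%). In myoblast-like cells *Chrna1* gave 68.5 ± 2.39% and *Chrnb1* 19.3 ± 1.44%, so the order of the pair was inverted in all 4 libraries. *Chrnd* and *Chrng* held shares of 7.99 ± 1.13% and 8.82 ± 0.587% in progenitor-like cells and 6.22 ± 0.925% and 5.87 ± 0.532% in myoblast-like cells. In myotube-like cells *Chrng* held 23.1 ± 6.20%, and *Chrnb1* 6.73 ± 4.97%. Transcript shares give no measure of the subunits in assembled receptors.

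**Figure D3:**
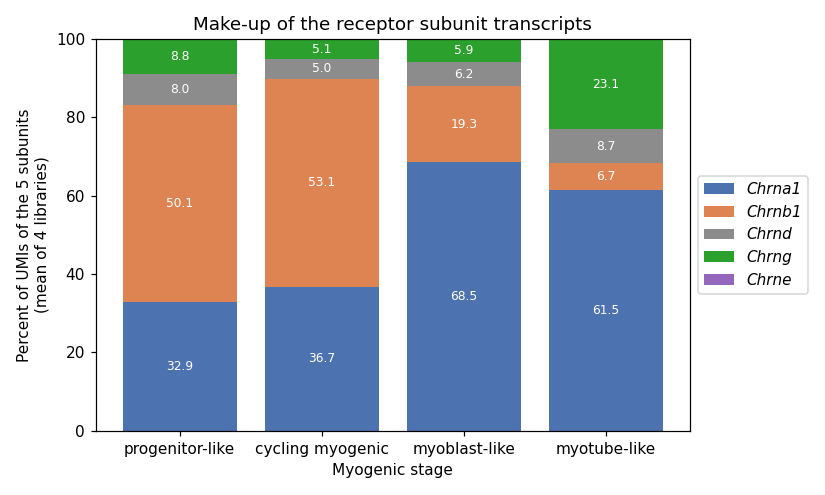
Share of the UMIs of the 5 receptor subunit genes that each contributes (percent, mean of 4 libraries), by myogenic stage; each bar adds up to 100%. *Chrnb1* leads in progenitor-like and cycling cells (50.1% and 53.1%) and *Chrna1* in myoblast-like and myotube-like cells (68.5% and 61.5%).

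After each cell was thinned to 2000 UMIs, at least 1 receptor subunit UMI was found in 56.4% of myoblast-like cells, 42.5% of myotube-like cells and 16.7% of progenitor-like cells, against 0.789% of FAP-like cells. A *Chrna1* UMI was found in 37.1% to 48.6% of the myoblast-like cells of a library, compared with 4.42% to 5.96% of progenitor-like cells. FAP-like cells, which should lack the gene, stood at 0.0994%. Without thinning, 3.28% of myoblast-like cells held no UMI of the 4 fetal subunit genes and 5.25% held UMIs of all 4. At full depth the median UMI count was 11428 in myoblast-like and 8441 in progenitor-like cells.

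The kinase *Musk* and its adaptor *Dok7* also peaked in myoblast-like cells. *Musk* measured 124 and 148 CPM there in WT and 123 and 126 CPM in KO, and 48.8 ± 3.75 CPM in progenitor-like cells, a ratio of 2.67 ± 0.368. Its level in myotube-like cells was lower, at 32.8 ± 27.2 CPM from 19 UMIs. *Dok7* measured 83.7 and 75.0 CPM in the myoblast-like cells of the WT libraries and 79.4 and 72.6 CPM in those of the KO libraries. Cycling cells held 19.1 ± 2.26 CPM of *Dok7*, above the progenitor-like level in each library by 1.48 to 2.13 times.

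The progenitor-like level of *Dok7* depended more on how the stage was drawn than that of the other genes compared. WT measured 9.91 and 9.65 CPM and KO 8.13 and 14.9 CPM, so that KO replicate 2 stood highest. *Myog* in the same cells was at 145 and 184 CPM in WT and 161 and 217 CPM in KO. In the finer sub-clusters named progenitor-like, *Dok7* was at 0.875 ± 0.305 CPM, whereas the unnamed *Myog*-expressing sub-cluster held 37.1 ± 9.32 CPM. The ratio of myoblast-like to progenitor-like cells was accordingly 7.29 with the main stages and 89.4 with the finer ones. The *Myog*-expressing sub-cluster made up 18.8% to 22.8% of the progenitor-like cells of a library, with KO replicate 2 at 22.4%. The finer sub-clusters named progenitor-like also differed between libraries. The largest held 26.2% and 28.3% of these cells in WT and 24.5% and 17.4% in KO. The middle one held 12.8% and 12.3% in WT and 14.3% and 16.1% in KO. The smallest held 15.1% and 11.6% in WT and 10.8% and 8.98% in KO. Unnamed sub-clusters differed too. One held 12.8% and 16.1% in WT and 19.4% and 19.6% in KO. That led by *Ung* held 9.85% and 10.4% in WT and 11.4% and 14.1% in KO. The part of this make-up in the *Dok7* level was not tested.

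*Rapsn* had another order of stages. It was higher in progenitor-like cells (61.0 and 61.4 CPM in WT, 63.3 and 57.0 CPM in KO) than in myoblast-like cells (34.0 and 35.0 CPM in WT, 33.1 and 27.8 CPM in KO). In all 4 libraries the myoblast-like value was lower, at 0.535 ± 0.0371 of the progenitor-like level. Myotube-like cells held 238 and 164 CPM in WT and 208 and 166 CPM in KO. That was 4.68 to 7.01 times the myoblast-like level of the same library, and a *Rapsn* UMI was found in 35% of the 80 thinned cells. Cycling cells were at 31.1 ± 0.744 CPM. Part of *Rapsn* is overlapped by Gm13778 on the opposite strand.

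*Lrp4* was expressed in myogenic-like and other cells alike. Its mean was 16.8 ± 1.18 CPM in myogenic-like and 16.2 ± 1.21 CPM in all other cells, a difference smaller than the spread between libraries. Within the myogenic stages its mean was lowest in myoblast-like cells, at 6.11 and 11.5 CPM in WT and 15.3 and 11.6 CPM in KO. These values rested on 14, 30, 45 and 32 UMIs, and were 0.340 to 1.02 times the progenitor-like level of the same library. Tenocyte-like cells, the cells of tendon, held 50.7 and 43.2 CPM in WT and 42.0 and 42.7 CPM in KO, above every other non-myogenic class in every library. The one higher value in a myogenic stage was 55.3 CPM, from 22 UMIs, in the myotube-like cells of KO replicate 2. With the looser cell filter the tenocyte-like mean was 30.01 CPM.

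**Figure D4:**
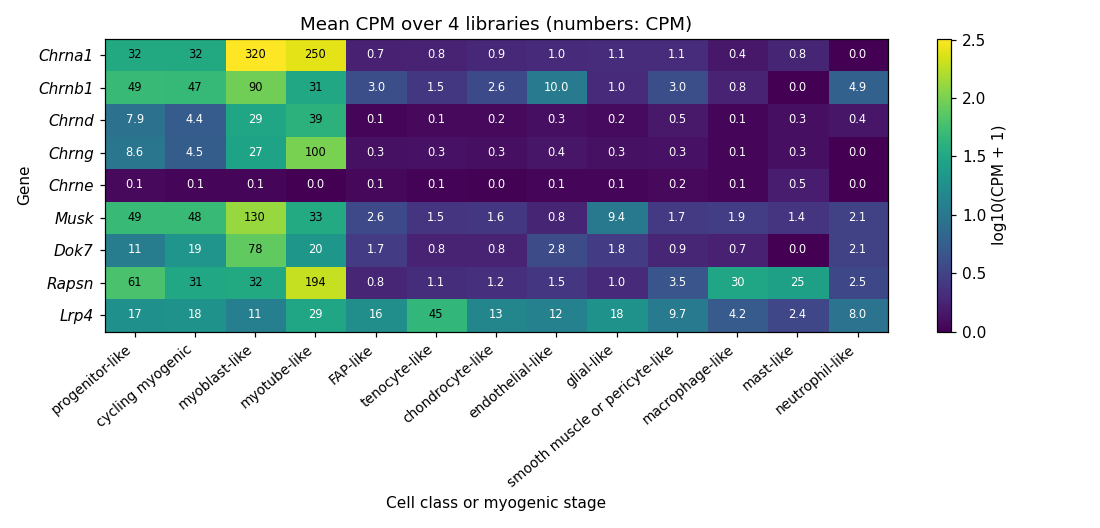
Mean level of each gene (rows; numbers are CPM over 4 libraries, colour is log10 of CPM plus 1) in 4 myogenic stages and 9 other cell classes (columns). *Lrp4* is highest in tenocyte-like cells (44.6 CPM), and *Rapsn* is seen in macrophage-like and mast-like cells (29.7 and 25.3 CPM) outside the myogenic stages.

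Outside muscle, transcripts of *Rapsn*, *Musk* and *Chrnb1* were each seen in particular classes. *Rapsn* measured 30.1 and 23.9 CPM in the macrophage-like cells of the WT libraries and 36.3 and 28.3 CPM in those of the KO libraries, and 25.3 ± 5.30 CPM in mast-like cells. The other non-myogenic named classes lay between 0.848 and 3.55 CPM. In the same macrophage-like cells *Chrna1* was at 0.438 CPM and *Myog* at 6.39 CPM, against 78.1 and 814 CPM in myogenic-like cells, where *Rapsn* was at 47.5 CPM. Of the macrophage-like cells thinned to 2000 UMIs, 4.62% held a *Rapsn* UMI, against 0.133% of FAP-like cells. Without cells called doublets, macrophage-like cells stood at 31.8 CPM and mast-like cells at 25.9 CPM. The nearest genes to the right of *Rapsn* on the same strand are *Psmc3*, 8279 bases away, and *Spi1*, 36660 bases away. *Spi1*, which encodes the myeloid factor PU.1, was at 338 CPM in macrophage-like, 73.4 CPM in mast-like and 391 CPM in neutrophil-like cells. Neutrophil-like cells held only 3 *Rapsn* UMIs (2.51 ± 3.17 CPM), in 215 cells with a median of 3660 UMIs.

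*Musk* measured 9.34 and 7.58 CPM in the glial-like cells of the WT libraries and 11.4 and 9.15 CPM in those of the KO libraries. The other named non-myogenic classes had means of at most 2.58 CPM. *Chrnb1* was at 9.99 ± 1.56 CPM in endothelial-like cells and at means of at most 4.94 CPM in the other named non-myogenic classes. In endothelial-like cells *Chrna1* was at 1.04 CPM and *Musk* at 0.798 CPM. *Myog* there was at 2.87 and 1.81 CPM in WT and 23.0 and 32.0 CPM in KO. The part of myogenic RNA in the *Chrnb1* level was not tested. *Zbtb4* ends 12 bases from *Chrnb1* on the opposite strand and was at 19.7 CPM in endothelial-like and 18.6 CPM in FAP-like cells. Whether reads of such neighbours were counted to the junction genes was not tested. An unnamed cluster of 517 cells led by *Cd79a*, 52.4% of them called doublets by Scrublet, held 1.64% to 5.88% of the UMIs of each gene.

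Across the 13 named classes and stages the genes most like each member were ranked by the Pearson correlation of log2(CPM + 1) among 12786 genes. This is a description over 13 points from the same libraries. *Chrna1* was closest to *Chrnd* (r = 0.985) and to *Mymx*, which encodes the fusion peptide myomixer (r = 0.984). *Chrnd* was closest to *Chrng* (r = 0.986). *Musk* was closest to *Ppp1r14b* (r = 0.955), *Dok7* to *AI463229* (r = 0.963) and *Chrnb1* to *Zfp568* (r = 0.951). *Rapsn* and *Lrp4* had weaker partners, *Aurkaip1* (r = 0.944) and *Zfp697* (r = 0.908).

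To learn whether loss of *SYISL* altered these genes, UMIs were summed per library and KO was compared with WT by the edgeR quasi-likelihood test with Benjamini-Hochberg adjustment. In myogenic-like cells 14661 genes were tested and 0 (0%) passed an adjusted p of 0.05. None of the 8 junction genes tested passed, and *Chrne* was below the expression filter. At an unadjusted p of 0.05, 525 genes (3.58%) and 0 junction genes passed, and DESeq2 called 2 genes after adjustment, none of them a junction gene. The fold changes of the junction genes lay between -0.20 for *Chrnd* and 0.07 for *Chrna1* on the log2 scale, with a median of -0.02, against 0.00 over all genes tested. *Chrna1* measured 72.1 and 82.6 CPM in WT and 81.9 and 75.7 CPM in KO, and the groups overlapped. In CPM, the KO values were both lower than either WT value for 4 of the 8 junction genes and both higher for 0. The shares of all genes were 23.3% and 10.2%. *Chrnd* had 10.97 and 11.1 CPM in WT and 8.86 and 9.74 CPM in KO (log2 change -0.20, SE 0.13, adjusted p = 0.961). *Musk* had 60.6 and 68.3 CPM in WT and 59.2 and 54.5 CPM in KO (log2 change -0.14, SE 0.09, adjusted p = 0.961). Neither difference passed the test.

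In progenitor-like cells 0 of 13104 genes (0%) and none of the 8 junction genes tested passed, and 441 genes (3.37%) and 0 junction genes had an unadjusted p under 0.05. DESeq2 called 1 gene and no junction gene. *Dok7* had the highest fold change of the junction genes, 0.29 on the log2 scale (SE 0.28, adjusted p = 0.977), from the library values given above. Without KO replicate 1, which left only KO replicate 2 in its group, the *Dok7* change was 0.69. That fit takes the lone KO library to vary as the WT libraries do, so calls made in it are not read as results. Without KO replicate 2 the *Dok7* change was -0.24. KO replicate 2 is the library with *Xist*, and the 6 erythroid markers in progenitor-like cells summed to 12.3 and 289 CPM in WT and 4.88 and 226 CPM in KO. The part of fetal sex or of erythroid RNA in this value was not tested. *Chrnd* had the lowest fold change, -0.35 (SE 0.21, adjusted p = 0.977), from 8.40 and 9.52 CPM in WT and 5.85 and 7.74 CPM in KO. It was -0.58 without KO replicate 2 and -0.14 without KO replicate 1. The KO values were both lower for 3 of the 8 junction genes and both higher for 0, beside 23.1% and 10% of all genes.

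**Figure D5:**
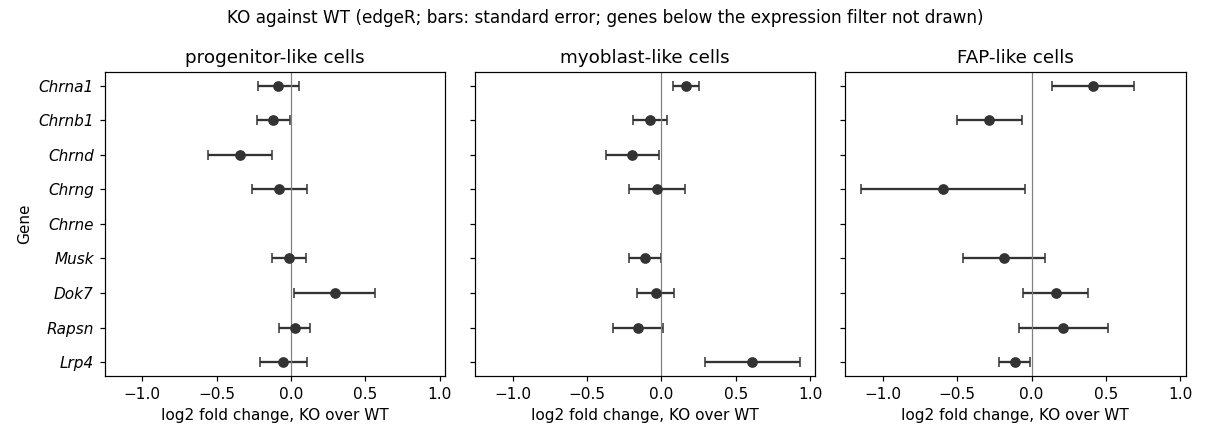
Log2 fold change of KO over WT for each junction gene (rows) in progenitor-like, myoblast-like and FAP-like cells; points are edgeR estimates from 2 libraries per group and bars their standard errors. No gene passed the adjusted test, and *Lrp4* in myoblast-like cells has the highest value, 0.61.

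In myoblast-like cells 0 of 9943 genes (0%) and none of the 8 junction genes tested passed, and 491 genes (4.94%) and 0 junction genes had an unadjusted p under 0.05. DESeq2 called 1 gene and no junction gene. *Lrp4* had a log2 fold change of 0.61 (SE 0.32, unadjusted p = 0.0728 and adjusted p = 0.990 in edgeR). Its KO values were both higher than either WT value, although the nearest ones, 11.6 CPM in KO and 11.5 CPM in WT, differed little against the spread within each group. The change was 1.14 without WT replicate 2 and 0.27 without WT replicate 1. *Chrna1* had a log2 fold change of 0.17 (SE 0.08, unadjusted p = 0.0679 and adjusted p = 0.990 in edgeR), which was 0.24 without KO replicate 2 and 0.09 without KO replicate 1. Of the 8 junction genes tested, the KO values were both higher for these 2 and both lower for 3. The shares of all genes were 14.3% and 19.5%. *Chrng* (-0.03, SE 0.19), *Musk* (-0.11, SE 0.11) and *Dok7* (-0.04, SE 0.13) had overlapping groups.

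The difference in the KO effect between myoblast-like and progenitor-like cells was tested as an interaction with the library as a block. Of 12596 genes, 0 (0%) passed, and 473 (3.76%) and 0 junction genes had an unadjusted p under 0.05. The estimate was 0.68 for *Lrp4* (SE 0.36), 0.26 for *Chrna1* (SE 0.15) and -0.30 for *Dok7* (SE 0.26) on the log2 scale, each with an adjusted p of 0.998 in edgeR. Leaving out 1 library at a time gave 0.30 (without WT replicate 1) to 1.27 (without WT replicate 2) for *Lrp4*. The same gave 0.04 (without KO replicate 1) to 0.48 (without KO replicate 2) for *Chrna1*, and for *Dok7* the sign changed, from -0.77 when KO replicate 1 was left out to 0.26 when KO replicate 2 was. In FAP-like cells 0 of 17629 genes (0%) and none of the 7 junction genes tested passed, with 498 genes (2.82%) and 0 junction genes under an unadjusted p of 0.05. DESeq2 called 3 genes and no junction gene. *Lrp4*, the one junction gene with a high count there, had 17.1 and 17.5 CPM in WT and 16.7 and 14.5 CPM in KO (log2 change -0.11, SE 0.10, adjusted p = 0.9999). The KO values were both higher for 1 of the 7 junction genes and both lower for 2, beside 9.09% and 21% of all genes. With 2 libraries per group that may stem from single fetuses or pools, these p-values measure only the spread between libraries.

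The genes that act around the receptor were then read from lists set by role. Of the clustering and kinase signalling partners, *Macf1*, a cytoskeletal linker, was at 389 CPM in myoblast-like against 201 CPM in progenitor-like cells. The others of high level, *Ctnnb1* (246 and 203 CPM), *Ptpn11* (76.2 and 91.3 CPM) and *Crk* (67.8 and 77.9 CPM), differed by less than 1.5 times between these stages. In the list of synaptic transcription control, *Prkar1a* was at 277 CPM in myoblast-like and 175 CPM in progenitor-like cells. *Nrg1*, encoding neuregulin, had the opposite order with 34.2 and 133 CPM. *Hdac4* (92.1 and 87.7 CPM) and the GABP subunit gene *Gabpb1* (46.7 and 49.2 CPM) also differed by less than 1.5 times.

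Among genes of the synaptic cleft and basal lamina, *Lama4* was at 9.18 CPM in myoblast-like and 55 CPM in progenitor-like cells. The alpha-5 laminin chain gene *Lama5* was at 46.4 and 54.5 CPM, and *Nid2* at 4.10 and 14.7 CPM. *Col25a1*, a muscle collagen needed for motor innervation, was at 337 ± 197 CPM in myotube-like and 337 ± 16.1 CPM in tenocyte-like cells. In myoblast-like cells it was at 13.3 ± 3.45 CPM. Of the postsynaptic membrane and cytoskeleton list, *Nes*, encoding the filament protein nestin, was at 176 CPM in myoblast-like and 56.8 CPM in progenitor-like cells. *Utrn*, encoding utrophin, was at 121 and 128 CPM, *Ncam1* at 123 and 170 CPM, and *Ank3* at 58.9 and 164 CPM.

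Of the 12 genes on the list of nicotinic subunits outside the muscle receptor, which also holds the receptor assembly chaperone gene *Tmem35a*, 1 reached 10 CPM in myogenic-like cells. *Chrna7*, encoding the alpha-7 subunit, measured 38.5 and 32.9 CPM in the progenitor-like cells of the WT libraries and 31.5 and 27.8 CPM in those of the KO libraries, and 3.49 ± 2.42 CPM in myoblast-like cells. *Chrna4*, singled out after its values were seen, was at 14.5 ± 5.08 CPM in myoblast-like cells and 0.0314 CPM in progenitor-like cells, where it had 1 UMI. *Agrn*, also chosen after its values were seen because it encodes agrin, was at 6.18 CPM in myogenic-like cells and highest in endothelial-like cells at 61.2 CPM. The neural form of agrin depends on splicing that these 3′ counts do not resolve.

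None of these list genes passed the edgeR test of KO against WT in myogenic-like cells. Tested were 16 of 16 clustering partners, 12 of 12 transcription control genes, 10 of 10 cleft genes, 10 of 11 postsynaptic genes and 4 of 12 genes of the nicotinic list. Their median log2 fold changes were 0.01, 0.05, -0.17, -0.03 and -0.15, beside 0.00 over all genes. In progenitor-like, myoblast-like and FAP-like cells and in the interaction, likewise, 0 genes of these lists passed. At an unadjusted p under 0.05 in edgeR, 1 of 16 clustering partners passed in myogenic-like cells, beside 3.58% of all genes. In progenitor-like cells 1 of 10 cleft and 1 of 10 postsynaptic genes passed, beside 3.37%. Myoblast-like cells had 0 such list genes, beside 4.94%. FAP-like cells had 2 of 10 cleft genes, 1 higher and 1 lower in KO, beside 2.82%. For the interaction 1 of 16 clustering partners and 1 of 10 postsynaptic genes passed, beside 3.76%.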

How the data were processed

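Single-cell RNA was measured in 4 libraries (2 WT, 2 KO) of leg muscle with 10x Genomics 3′ chemistry. The deposited values are UMI counts per gene and cell, which the authors made with Cell Ranger 7.2.0 on mm10 (submitters' processing notes); whether intronic reads were counted is not given in the sources used here. Deposited totals were 109653824 to 126257094 UMIs per library.

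Cells with 1000 to 6000 genes, 1000 to 25000 UMIs and under 8% mitochondrial UMIs, the study's limits, were kept. Cells were clustered with scanpy 1.11.5 (3000 variable genes without the junction genes, 30 components, Leiden resolution 0.3). A cluster was named where at least 3 markers of a list were met and every other list had a lower share. A marker was met at 2 times its level in the other cells (1.5 times for stages) and detection in 10% of cells. A constant was added to both levels. A class name was withheld where another list had more markers among the leading genes. It was also withheld where a cluster of low depth had no marker of its own among them. No cells were removed as doublets in the main analysis; Scrublet calls (1.65% to 2.56% of cells) were removed as an alternative. CPM is a gene's UMIs per 1000000 UMIs in the summed cells of a library. KO and WT sums were compared with edgeR 4.0.16 (TMM, filterByExpr, quasi-likelihood), with DESeq2 1.42.0 as an alternative, and the code was tested on simulated data. Intervals are exact 95% binomial. Named beyond the 9 members were the 3 most similar genes per member (of which the first or first 2 are given), up to 4 list genes per role at 10 CPM or more in myogenic-like cells, and 6 stage markers (*Myf5* and *Myod1* are not detailed). The members and lists were chosen with earlier results of these data known, and the rule for cluster names was set after seeing the data. Promoter sequences were taken from RefSeq (GRCm38.p6), with windows for 6 of 9 members. A few genes that these rules would name are not reported here.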

Additional observations from a re-analysis of the deposited data

How the results depend on the processing

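The count of genes passing the adjusted KO against WT test, 0 in each comparison, moved with the processing. In myogenic-like cells it was 2 with DESeq2, 1 with the looser cell filter and 5 with expression centred within library, and 5 to 8 when 1 library was left out. In progenitor-like cells it was 1 with DESeq2 and 0 to 292 with 1 library left out, the 292 without KO replicate 1 and 23 without KO replicate 2. The junction genes among them numbered 0 to 1, the 1 being *Dok7*. In myoblast-like cells it was 25 with no gene filter, 1 with DESeq2, 4 with the looser cell filter and 12 to 20 with 1 library left out. In FAP-like cells it was 3 with DESeq2 and 0 to 59 with 1 library left out, and for the interaction 5 to 44. The replicate block called 18, 0, 13 and 4 genes in myogenic-like, progenitor-like, myoblast-like and FAP-like cells and 0 junction genes. The labels tie the replicate numbers to no litter or day, and the deviations of same-numbered libraries correlated at r = 0.0854, 0.198, 0.0449 and 0.205, so the numbers were not taken as pairs. Centring gave no myoblast-like cluster, so that test was not run. The cause of these differences was not tested.

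Of 88 single values with a library left out, 74 kept direction and call, 1 gained a call and 13 reversed. These values, and those under other settings, covered every junction gene tested in myogenic-like and myoblast-like cells. In progenitor-like cells they covered only *Dok7* and *Chrnd*, in FAP-like cells only *Lrp4*, and in the interaction *Lrp4*, *Dok7* and *Chrna1*. Junction genes outside this set also changed direction. In progenitor-like cells 2 were higher and 6 lower in the main fit, against 4 and 4 without WT replicate 1. Within the set, the log2 fold changes that reversed ranged from -0.016 to 0.16 for *Chrna1*, -0.13 to 0.038 for *Chrng*, -0.048 to 0.16 for *Dok7*, -0.025 to 0.038 for *Rapsn* and -0.097 to 0.18 for *Lrp4* in myogenic-like cells. They ranged from -0.24 to 0.15 for *Chrng*, -0.21 to 0.0087 for *Musk* and -0.14 to 0.065 for *Dok7* in myoblast-like cells, and for *Dok7* from -0.24 to 0.69 in progenitor-like cells and -0.77 to 0.26 in the interaction. Of 150 values under other settings, 148 kept direction and call. *Rapsn* in myogenic-like cells was -0.052 with centring and *Chrng* in myoblast-like cells 0.0021 with the looser filter. The KO minus WT difference in the *Chrng* share was -0.0223 percentage points with the looser filter and -0.432 to 0.779 with 1 library left out.

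The ratio of myoblast-like to progenitor-like level moved with the finer sub-clusters, the marker gates and centring, in that order. It was 25.7, 19.7 and 12.2 for *Chrna1*, 6.09, 4.54 and 4.19 for *Chrnd*, 89.4, 29.7 and 15.7 for *Dok7*, and 0.485, 0.635 and 0.718 for *Rapsn*. For *Chrnb1* it was 1.58 with the gates and 1.62 with centring. Each stayed on its side of 1. Centring used an unnamed sub-cluster led by *Tnni1* in place of myoblast-like cells. Shares of myogenic-like cells with a UMI depended on depth. Thinned to 1000 UMIs they were 6.27% for *Chrna1*, 1.29% for *Chrng*, 5.30% for *Musk* and 5.26% for *Rapsn*, and without thinning 27.9%, 9.37%, 35.4% and 36.0%, beside 10.5%, 2.19%, 10.3% and 9.75% at 2000 UMIs.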
